A study of Drosophila melanogaster with 3 samples.

Results

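*Stellate* (*Ste*) and *Suppressor of Stellate* (*Su(Ste)*) are paired families of repeated genes in *Drosophila melanogaster*, and their annotated copies were followed here in the RNA of male larvae. The members were taken by name, as every entry of the deposited expression table whose gene name begins with *Ste:* or *Su(Ste):*. They numbered 54 of 15185 entries, with 12 *Ste* and 42 *Su(Ste)* copies. The families were selected on measured values, since their summed levels had been seen to differ between the genotypes in these same libraries, so those differences are given as a description. All members carried a level above 0 in every library, none shared an entry with another gene and none overlapped another entry.

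*Ste* lies on the X chromosome and encodes a relative of the beta subunit of casein kinase 2 (CK2), a protein kinase found in nearly every cell. *Su(Ste)* repeats lie on the Y chromosome and are the source of small RNAs, the piRNAs, which guide Argonaute proteins of the male germline to *Ste* transcripts. Where the repeats are missing, *Ste* transcripts accumulate in spermatocytes, the protein forms crystals and the males become less fertile or sterile. *Su(Ste)* is the best-known case of piRNA silencing in the testis, an organ that already holds many spermatocytes in the 3rd larval instar.

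Total RNA came from the whole body of male 3rd instar larvae, with 1 library for each of 3 genotypes. Canton S served as wild type. The *mxcG43* larvae carried a hypomorphic allele of *multi sex combs* (*mxc*), an X-linked gene, and showed no tumour, whereas *mxcmbn1* larvae carried a recessive lethal allele and had tumours of the lymph gland, the larval blood-forming organ. The *mxcmbn1* allele came from a stock that also carries *w1*, and the larvae no longer had the duplication by which that stock supplies a normal *mxc* gene. Directional libraries were read as single reads of 51 bp. Because *mxc* and the *Ste* cluster share the X chromosome and the 3 stocks have separate histories, the allele, the strain background and the number of *Ste* or *Su(Ste)* repeats cannot be told apart. The number of repeats was not measured in these libraries. The origin of the Y chromosome in each stock is not given in the sources used here. In whole larvae, fewer cells of a type and less RNA per cell also cannot be told apart. The paper gives the wild-type and *mxcmbn1* larvae as equal in stage. It also reports that some *mxcmbn1* larvae were still in the 3rd instar after controls had pupated. A difference in stage therefore cannot be told apart from the allele either. As each genotype has 1 library, the differences carry no replicate error and were not tested.

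Levels are in FPKM, the fragments of a gene scaled to its exon length in kilobases and to the total of mapped fragments. From the steps between the lowest values of genes with 1 exon, 1 read was found to be worth 0.0889, 0.0917 and 0.0656 FPKM times kilobases in wild type, *mxcG43* and *mxcmbn1*. The *mxcmbn1* library was thus 1.36 times as deep as that of wild type, and that of *mxcG43* 0.969 times. A level could thereby be turned into a number of reads. The mutated gene itself stood at 1.96 FPKM in wild type, 1.94 in *mxcG43* and 3.56 in *mxcmbn1*. *roX1*, a male-specific RNA of X-chromosome dosage compensation, was high in all 3 libraries, at 247, 201 and 195 FPKM. All 3 salivary gland genes and all 4 larval fat body genes listed were under 0.5 times wild type in *mxcmbn1*, against 23.4% of all entries. *Sgs3* of the salivary gland was at 6850, 8941 and 740 FPKM in wild type, *mxcG43* and *mxcmbn1*. *Fbp1* of the fat body was at 1129, 4098 and 111 FPKM. The part of stage in these values was not tested. The median ratio to wild type over all entries above 0 in both libraries was 0.977 in either mutant.

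The *Su(Ste)* family was lowest in wild type and highest in *mxcmbn1*. Its 42 copies summed to 4.85 FPKM in wild type, 44.1 FPKM in *mxcG43* and 158 FPKM in *mxcmbn1*. These sums stood for about 52.9, 402 and 2326 reads. The *Ste* family followed another order, with the highest level in *mxcG43* and almost nothing in *mxcmbn1*. Its 12 copies summed to 1.03 FPKM in wild type, 19.2 FPKM in *mxcG43* and 0.0102 FPKM in *mxcmbn1*. They stood for 4.70 reads in wild type, 85.3 in *mxcG43* and 0.0630 of a read in *mxcmbn1*. Both families were thus higher in *mxcG43* than in wild type, and in *mxcmbn1* they lay on opposite sides of it. The summed FPKM of *Su(Ste)* was 4.72 times that of *Ste* in wild type and 2.296 times in *mxcG43*. No such ratio can be read in *mxcmbn1*, where *Ste* amounted to less than 1 read.

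**Figure D1:**
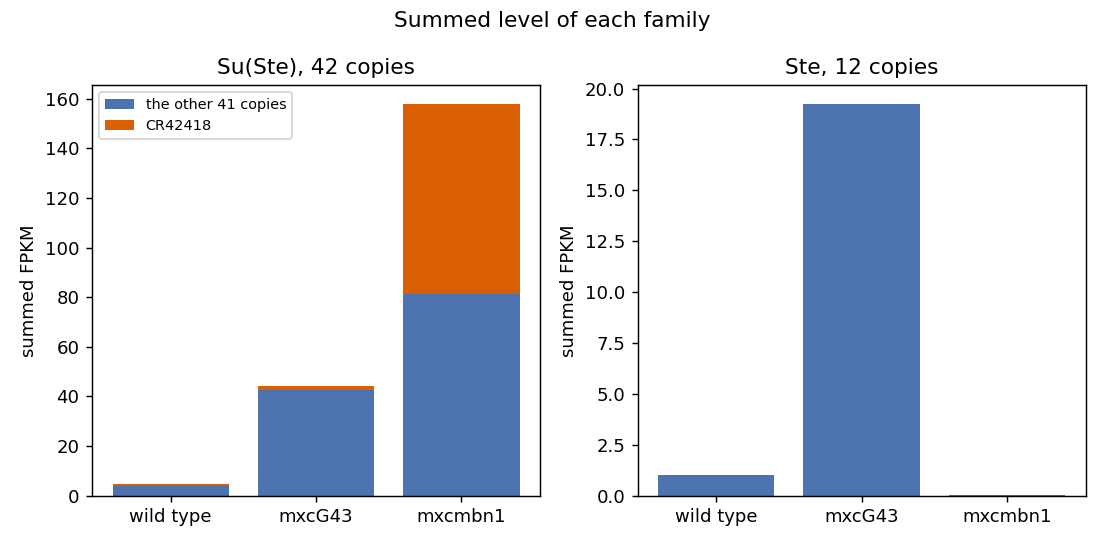
Summed FPKM of the 42 *Su(Ste)* copies (left) and the 12 *Ste* copies (right) in the 3 libraries, each axis starting at 0 and each bar standing for 1 library, with no error bar because there are no replicates. The orange segment is the single copy CR42418, which makes up 48.5% of the *Su(Ste)* sum in *mxcmbn1* (158 FPKM), and the *Ste* bar of *mxcmbn1* (0.0102 FPKM) is too low to be seen.

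The *Ste* copies lie side by side in a cluster on X, the first (CG33247, XLOC_014638) at chrX:13940805-13941528 and the last (CG33236) at chrX:13954735-13955458 in BDGP5, with starts counted from 1. In the newer BDGP6 annotation all 12 are on the minus strand of X, with exons of 604 to 608 bases in total. They code for the protein that builds the crystals. In wild type the copies ranged from 0.0550 to 0.1004 FPKM, and none reached 1 read. In *mxcG43* they ranged from 1.27 to 1.93 FPKM, and each of the 12 stood for at least 3 reads, with 8.57 reads in the highest copy, CG33237. In *mxcmbn1* they ranged from 0.000278 to 0.00255 FPKM, with at most 0.0158 of a read in any copy. Every copy was thus listed highest in *mxcG43*. As no copy reached 1 read in wild type or in *mxcmbn1*, the order of these 2 libraries cannot be read from single copies.

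Single *Ste* copies could barely be told from each other. Within *mxcG43* the highest was only 1.52 times the lowest, and within wild type 1.83 times. In wild type 6 copies were listed at exactly the same 0.0989 FPKM and another 2 at 0.0552 FPKM. In *mxcG43* 3 copies shared the value 1.78 FPKM, and in *mxcmbn1* 6 copies shared 0.000280 FPKM. At its default setting Cufflinks divides a read that matches several places among them, and its part in these equal values was not tested. The reads of a whole family do not depend on how a read is divided within it, so the sum is the firmer measure, and the levels of single copies are uncertain. A sum can still depend on reads divided with related entries outside the family, and how many such reads there were was not measured.

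For the *Ste* family, the sum in *mxcG43* was 18.7 times that in wild type. The interval of the ratio of reads (85 against 5) ran from 7.23 to 55.4. It is a 95% Clopper-Pearson interval and, like all intervals here, covers counting error only. All 12 copies were more than 10 times higher, with ratios from 14.0 (CG33242) to 29.7 (CG33241) and a median of 18.1. Among the 12907 entries above 0 in both libraries 1.05% were that much higher. Each of those 12 ratios has under 1 wild-type read below it. With 3 reads as the lowest level that any copy was allowed to take, none of the 12 exceeded 10 times.

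Against wild type, the *Ste* sum in *mxcmbn1* was 2.12-fold lower when 3 reads were allowed for *mxcmbn1*. That value leaves out the counting error of wild type. The ratio of 0 to 5 reads had an upper bound of 0.805. Taken as listed, all 12 copies were more than 10 times lower, as were 11.3% of all entries, but neither library held a whole read of any single copy. The comparison with *mxcG43* had more reads. With 3 reads allowed in the same way, the *mxcmbn1* sum was 39.7-fold lower than the *mxcG43* sum. The upper bound of the ratio of 0 to 85 reads was 0.0317. All 12 copies were more than 10 times lower as listed, against 11.2% of all entries in that comparison.

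**Figure D2:**
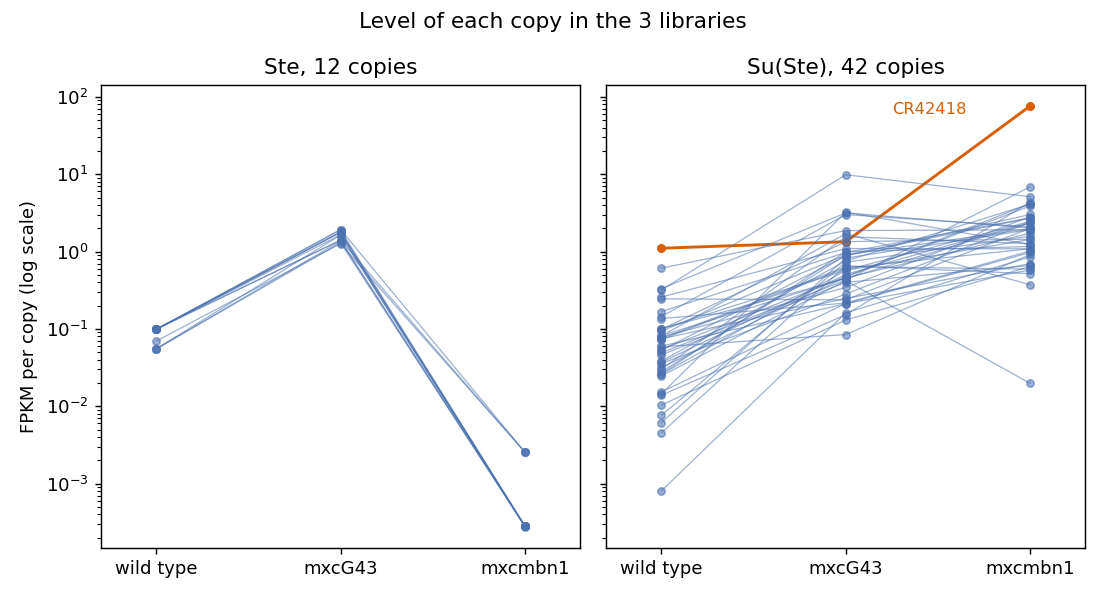
FPKM of each copy in the 3 libraries on a log scale, with 1 line for each copy and no error bars, for the 12 *Ste* copies (left) and the 42 *Su(Ste)* copies (right, CR42418 in orange). The *Ste* copies move as 1 bundle, from 0.0550 to 0.1004 FPKM in wild type to 1.27 to 1.93 FPKM in *mxcG43* and to 0.00255 FPKM or less in *mxcmbn1*, whereas the *Su(Ste)* copies spread widely in each library and mostly lie higher from left to right.

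Placed on the sequence U, which in BDGP5 holds fragments with no known position, the *Su(Ste)* copies belong mainly to the Y chromosome. By symbol, 31 of the 42 were found in the BDGP6 annotation. There 24 were on the Y chromosome and 7 on unplaced scaffolds, and 11 had no match. The 24 copies on Y summed to 2.43 FPKM in wild type, 24.4 FPKM in *mxcG43* and 48.4 FPKM in *mxcmbn1*. The 7 on unplaced scaffolds summed to 1.49, 8.19 and 89.9 FPKM, and the unmatched 11 to 0.931, 11.6 and 19.4 FPKM in the same order. Each of the classes was lowest in wild type and highest in *mxcmbn1*. Of the matched copies 12 were annotated on the plus strand, summing to 1.40, 7.60 and 20.6 FPKM, and 19 on the minus strand, summing to 2.52, 24.96 and 118 FPKM. Both orientations therefore showed the same order of genotypes. The single copy CR42418, on an unplaced scaffold and the minus strand, supplied 76.4 FPKM of the 89.9 and of the 118 FPKM in *mxcmbn1*.

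Strand bears on what these levels mean, because piRNAs of the family come from transcripts antisense to *Ste*. The kit kept the strand of the RNA, but default alignment and quantification do not use it, so sense and antisense transcripts of a repeat cannot be told apart in these values. Mature piRNAs are also shorter than the transcripts such a kit captures. The values describe longer transcripts that match the repeats.

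The *Su(Ste)* copies differed far more among themselves than the *Ste* copies did. In wild type they ranged from 0.000805 to 1.11 FPKM with a median of 0.0564, and 29 of 42 stood for less than 1 read. In *mxcG43* the range was 0.0846 to 9.87 FPKM with a median of 0.594. In *mxcmbn1* it was 0.0198 to 76.4 FPKM with a median of 1.83. Copies with at least 3 reads numbered 3 in wild type, 30 in *mxcG43* and 40 in *mxcmbn1*, while those at 1 FPKM or more numbered 1, 10 and 31. Most copies of the family were thus assigned at least 3 reads in *mxcG43* and *mxcmbn1*, whereas only CR42418, CR42429 and CR42431 reached 3 reads in wild type. Assigned reads may include reads divided among copies.

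**Figure D3:**
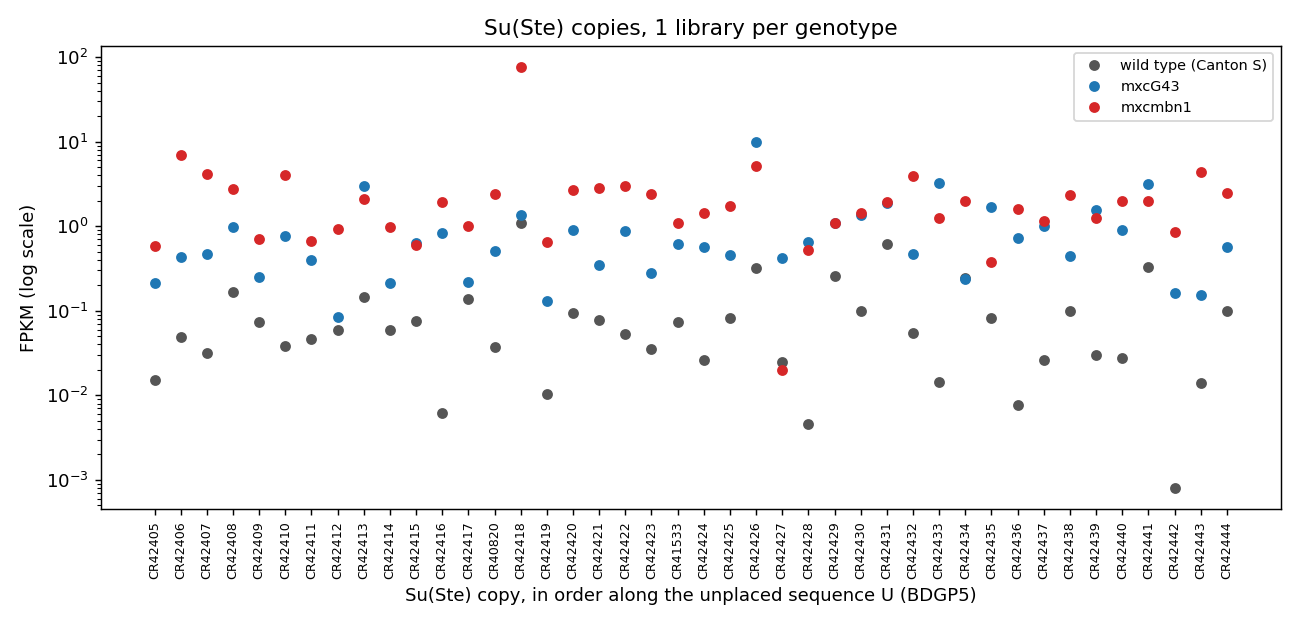
FPKM (log scale) of each of the 42 *Su(Ste)* copies, in their order along the unplaced sequence U of BDGP5, in wild type (grey), *mxcG43* (blue) and *mxcmbn1* (red), with each point 1 library. The red point lies above the grey in 41 of 42 copies and above the blue in 32, with CR42418 (76.4 FPKM in *mxcmbn1*) and CR42426 (9.87 FPKM in *mxcG43*) as the highest points.

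The summed *Su(Ste)* level in *mxcG43* was 9.10 times that in wild type. The interval of the ratio of reads (402 against 53) ran from 5.86 to 10.6. Of the 42 copies 41 were higher than in wild type, 38 of them more than 2 times and 21 more than 10 times. Among all entries 7.91% were more than 2 times and 1.05% more than 10 times higher. The median of the copies' ratios was 10.3, with quartiles of 5.61 and 21.0. As the wild-type levels were mostly fractions of a read, the count over 10 times was 3 of 42 (CR42413, CR42426 and CR42433) when no copy was allowed below 3 reads.

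In *mxcmbn1* the summed *Su(Ste)* level was 32.5 times that in wild type, and the ratio of reads (2326 against 53) had an interval from 24.7 to 43.4. Again 41 of 42 copies were higher. All 41 were more than 2 times and 33 were more than 10 times higher, against 15.6% and 2.13% of all entries. The quartiles of the copies' ratios were 14.5 and 70.7. With no copy allowed below 3 reads, 7 copies exceeded 10 times (CR42406, CR42407, CR42408, CR42410, CR42418, CR42422 and CR42443). Without CR42418 the family still summed to 3.74 FPKM in wild type and 81.3 FPKM in *mxcmbn1*, a ratio of 21.7.

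Between the mutants the difference was smaller and not shared by all copies. The sum was 3.57 times higher in *mxcmbn1* than in *mxcG43*, and the ratio of reads was 4.14, with an interval from 3.72 to 4.61. Of the 42 copies 32 were higher and 10 lower in *mxcmbn1*, where the median ratio to *mxcG43* over all entries above 0 in both was 0.980. Some of the 10 rested on few reads, such as CR42428 with about 5 reads in each mutant. More than 10 times higher were 4 copies, against 1.36% of all entries, and 3 of these (CR42406, CR42418 and CR42443) stayed so with no copy allowed below 3 reads. This comparison had 29 copies with at least 3 reads in both libraries, against 3 such copies in either comparison with wild type. When the highest copy was left out, the ratio of the sums was 1.90, so CR42418 carried much of the difference between the mutants.

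CR42418 (XLOC_012768) lies at chrU:7083127-7084391 in BDGP5 and on an unplaced scaffold in BDGP6. It stood at 1.11 FPKM in wild type, 1.34 FPKM in *mxcG43* and 76.4 FPKM in *mxcmbn1*, from about 13, 16 and 1241 reads. Wild type and *mxcG43* did not differ beyond counting error in this copy, with a ratio of 1.21 and an interval from 0.573 to 2.87. From *mxcG43* to *mxcmbn1* the ratio was 57.0 (interval 34.0 to 97.4), and from wild type it was 69.1 (interval 41.04 to 133). CR42418 was already the highest copy of wild type, with 22.8% of the sum, and took 48.5% in *mxcmbn1*. There it exceeded the next copy 11.1 times.

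CR42426 (XLOC_012777), at chrU:7794756-7795407 in BDGP5 and on Y in BDGP6, led in *mxcG43* with 22.4% of the sum. Its levels were 0.319 FPKM in wild type, 9.87 FPKM in *mxcG43* and 5.13 FPKM in *mxcmbn1*, from about 2, 49 and 35 reads. It was higher than wild type in both mutants, and lower in *mxcmbn1* than in *mxcG43*. The ratio to wild type was 30.9 in *mxcG43* (interval 6.63 to 215) and 16.1 in *mxcmbn1* (interval 3.32 to 111). Between the mutants the ratio was 0.519, with an interval from 0.321 to 0.805.

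CR42433 showed the same order between the mutants. It was at 0.0144 FPKM in wild type, less than 1 read, at 3.24 FPKM in *mxcG43* and at 1.24 FPKM in *mxcmbn1*. The *mxcG43* level was 14.0 times that of 3 reads in wild type, and the interval of the ratio of reads began at 11.0. The ratio of *mxcmbn1* to *mxcG43* was 0.381, with an interval from 0.218 to 0.660. CR42413 and CR42441 were also listed lower in *mxcmbn1*, but here counting error spanned equality. CR42413 was at 0.145, 3.01 and 2.09 FPKM in wild type, *mxcG43* and *mxcmbn1*, and its ratio between the mutants had an interval from 0.440 to 1.11. CR42441 was at 0.332, 3.17 and 2.01 FPKM, with an interval from 0.331 to 1.17.

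Of the 3 copies with enough reads in wild type, CR42431 and CR42429 moved alike. CR42431 was at 0.611 FPKM in wild type, 1.87 FPKM in *mxcG43* and 1.92 FPKM in *mxcmbn1*. CR42429 was at 0.258, 1.10 and 1.09 FPKM in the same order. Each was higher than wild type in both mutants, and the mutants differed by less than counting error. For CR42431 the ratio to wild type was 3.06 in *mxcG43* (interval 1.27 to 8.62) and 3.13 in *mxcmbn1* (interval 1.36 to 8.53). For CR42429 it was 4.24 (interval 1.53 to 18.9) and 4.202 (interval 1.59 to 18.2). The ratio between the mutants had an interval of 0.566 to 1.88 for CR42431 and of 0.521 to 1.93 for CR42429.

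A further set of copies was highest in *mxcmbn1*. CR42406 was second in that library, at 6.89 FPKM, against 0.0491 FPKM in wild type and 0.429 FPKM in *mxcG43*. CR42443 stood at 0.0139, 0.153 and 4.36 FPKM, CR42407 at 0.0315, 0.472 and 4.19 FPKM, and CR42410 at 0.0386, 0.757 and 4.09 FPKM, in the same order. None of these 4 reached 1 read in wild type. Against 3 reads there, the *mxcmbn1* level was 11.7 times as high for CR42406, 13.5 for CR42443, 19.8 for CR42407 and 19.7 for CR42410. The intervals of their ratios of reads to wild type began at 9.24, 10.6, 15.6 and 10.3, in that order of copies.

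Other copies at the ends of the ranking rested on few reads. CR42434 was the only copy not higher in *mxcG43* than in wild type, at 0.238 against 0.245 FPKM or about 3 reads each, and it stood at 2.01 FPKM in *mxcmbn1*. CR42427 was the only copy listed lower in *mxcmbn1* (0.0198 FPKM) than in wild type (0.0247 FPKM), and both values were below 1 read. CR42442 had the lowest wild-type level of all, at 0.000805 FPKM, and 0.855 FPKM in *mxcmbn1*.

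The rank order of the copies was only loosely kept from library to library. Spearman's rho over the 42 copies was 0.349 between wild type and *mxcG43*, 0.303 between wild type and *mxcmbn1*, and 0.219 between the mutants. These are descriptions over copies, which share library, sequence and divided reads. The width of a copy had little relation to its FPKM, with rho of 0.163 in wild type, -0.00673 in *mxcG43* and 0.00891 in *mxcmbn1*.

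Other entries on the unplaced sequence U were mostly lower than wild type in both mutants. Of 109 other entries on U, 91 were above 0 in both wild type and *mxcG43*, with a median ratio of 0.445. Of these, 3 were more than 10 times higher, against 1.05% of all entries. For *mxcmbn1* 86 could be compared, with a median ratio of 0.454 and again 3 more than 10 times higher, against 2.13% of all entries. The 14 entries on YHet, the placed heterochromatin of the Y chromosome in BDGP5, had higher medians. Their median ratio was 1.14 in *mxcG43*, over 11 entries above 0 in both libraries. None of these was more than 2 times higher, against 7.91% of all entries. In *mxcmbn1* their median ratio was 4.03 over 9 entries. Of these, 5 were more than 2 times and 1 more than 10 times higher, and 3 more than 10 times lower. Among all entries 15.6%, 2.13% and 11.3% were. The corresponding medians of the 42 *Su(Ste)* copies were 10.3 and 32.5, and the difference from either class of entries was not tested.

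Relatives of *Ste* that the naming rule left out did not share 1 order of genotypes. *Ste12DOR*, a further *Ste* gene on X, was at 0.00318 FPKM in wild type, 1.62 FPKM in *mxcG43* and 0.000254 FPKM in *mxcmbn1*. With 6.41 reads in *mxcG43* and less than 1 read in each of the others it was highest in *mxcG43*, like the *Ste* cluster. Its order between wild type and *mxcmbn1* cannot be read. *SteXh* (CG42398, at chrU:6621521-6622252), an annotated *Ste* repeat, was at 0.497 FPKM in wild type, 8.83 FPKM in *mxcG43* and 6.66 FPKM in *mxcmbn1*, from about 2.32, 40.0 and 42.1 reads. *SteXh* was thus above wild type in both mutants, unlike the *Ste* cluster in *mxcmbn1*. It was listed higher in *mxcG43* than in *mxcmbn1*, but no counting interval was computed for that difference.

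The kinase to which Stellate is related did not follow either family. *CkIIbeta*, the regulatory subunit of CK2, was at 84.7, 73.8 and 79.2 FPKM in wild type, *mxcG43* and *mxcmbn1*. *CkIIalpha*, its catalytic subunit, was at 166, 138 and 184 FPKM. *Ssl* and *CkIIbeta2*, beta-like genes active in the testis, were low in *mxcmbn1* alone. *Ssl* was at 13.5, 11.2 and 0.0977 FPKM and *CkIIbeta2*, whose locus overlaps 1 other entry, at 15.7, 22.3 and 0.208 FPKM.

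**Figure D4:**
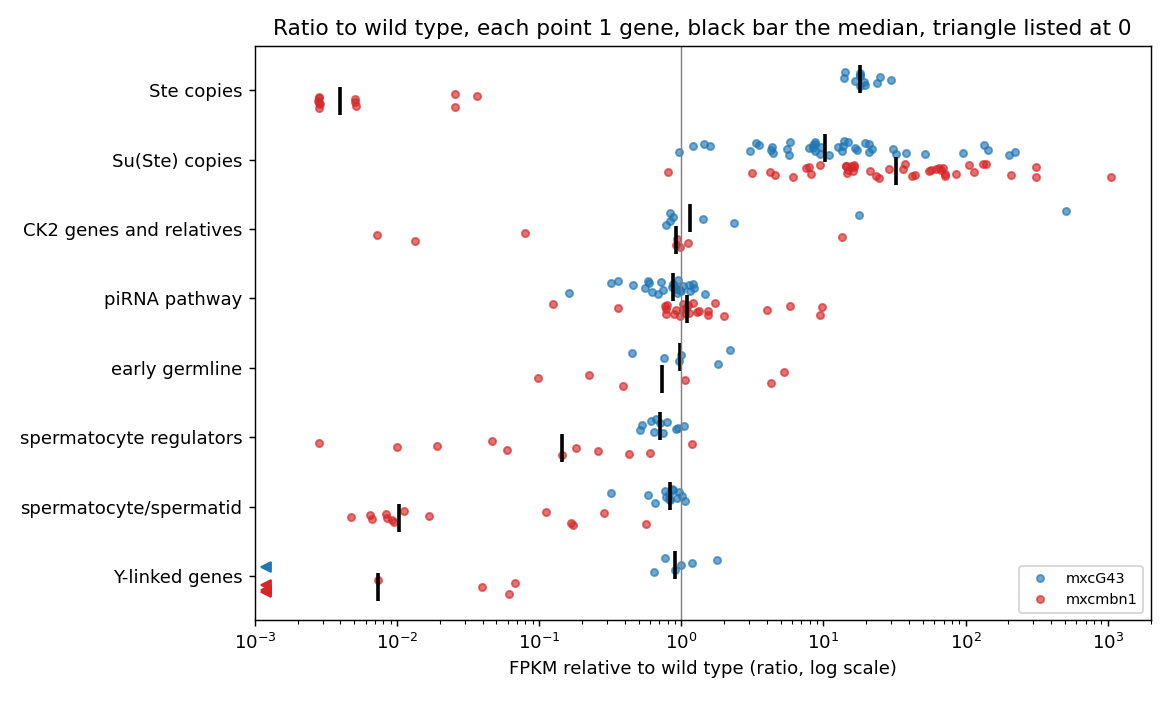
Ratio of FPKM to wild type (log scale) in *mxcG43* (blue) and *mxcmbn1* (red), where each point is 1 copy or gene above 0 in wild type, the black bar is the median of the row and triangles at the left edge are genes listed at 0 in the mutant. In *mxcG43* all 12 *Ste* copies and 41 of 42 *Su(Ste)* copies lie to the right of 1. The medians there are 0.710 for spermatocyte regulators and 0.829 for spermatocyte and spermatid genes. In *mxcmbn1* the medians of the *Su(Ste)* copies (32.5) and of the spermatocyte and spermatid genes (0.0104) lie on opposite sides.

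Spermatocytes are the cells in which *Ste* is known to be expressed, and their genes were nearly all present in *mxcG43* and mostly much lower in *mxcmbn1*. Of 11 regulators of spermatocyte transcription, such as *aly*, *can* and *sa*, none was under 0.5 times wild type in *mxcG43*, against 6.57% of all entries, and the median ratio was 0.710. In *mxcmbn1* 9 of 11 were, against 23.4% of all entries, and the median ratio was 0.145. The testis-specific TAF *can* was at 8.36, 5.14 and 0.0237 FPKM in wild type, *mxcG43* and *mxcmbn1*. Of 14 genes of spermatocytes and spermatids, 1 was under 0.5 times in *mxcG43* and 13 in *mxcmbn1*. Of these 13, 9 were more than 10 times lower, against 11.3% of all entries. The levels were not uniformly low, since *mia* was at 1.196 times, *tomb* at 0.604 times and *Dhc98D* at 0.563 times wild type in *mxcmbn1*. *betaTub85D*, the testis tubulin, was at 131 FPKM in wild type, 112 FPKM in *mxcG43* and 1.47 FPKM in *mxcmbn1*. The low *Ste* level of *mxcmbn1* stood beside low spermatocyte genes and the high *Ste* level of *mxcG43* did not stand beside high ones, and the part of cell composition in either was not tested.

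Y-linked protein genes, which are transcribed in spermatocytes, also differed from the Y-linked *Su(Ste)* repeats. Of the 11 listed, 8 were found as single entries and 7 of these were above 0 in wild type. All 7 were more than 10 times lower in *mxcmbn1*, and 3 of them were listed at 0 there. Among the 12508 entries above 0 in both libraries, a set that leaves out such genes at 0, 11.3% were that much lower. The dynein gene *kl-2* was at 0.729, 0.559 and 0.00533 FPKM in wild type, *mxcG43* and *mxcmbn1*, and *ARY*, an aldehyde reductase gene, at 6.997, 6.937 and 0.276 FPKM. The Y-linked phosphatase genes parted in *mxcG43*. *Pp1-Y1* was at 4.79 FPKM in wild type and listed at 0 in both mutants, whereas *Pp1-Y2* was at 2.93 FPKM in wild type, 2.66 FPKM in *mxcG43* and listed at 0 in *mxcmbn1*. *Ory* was listed at 0 in wild type, with 0.326 FPKM in *mxcG43* and 0.0466 FPKM in *mxcmbn1*. Whether such values reflect different Y chromosomes was not tested.

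The earlier germline gave no single direction. *nos*, required in germline stem cells, was at 0.619, 1.36 and 3.29 FPKM in wild type, *mxcG43* and *mxcmbn1*, and *zpg*, a germline gap junction gene, at 0.994, 0.957 and 4.25 FPKM. *bam*, which drives the differentiation of spermatogonia, was at 27.7, 12.5 and 6.20 FPKM. Its partner *bgcn* was at 0.0988 times wild type in *mxcmbn1*, *ovo* at 0.389 times and *stwl* at 1.07 times. Of the 6 genes 2 were more than 2 times higher and 3 under 0.5 times wild type in *mxcmbn1*. Among all entries 15.6% and 23.4% were.

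Genes of the piRNA pathway, by which *Su(Ste)* acts on *Ste*, mostly stayed within 2 times of wild type in *mxcG43*. None of the 26 was more than 2 times higher and 4 were under 0.5 times wild type, against 7.91% and 6.57% of all entries. These 4 were *vas* at 0.356, *spn-E* at 0.320, *qin* at 0.458 and *rhi* at 0.163 times wild type. *vas* and *spn-E* encode helicases of the germline pathway, *qin* a Tudor protein that acts with Aubergine and Argonaute 3, and *rhi* a chromatin protein of piRNA clusters. *aub*, the Argonaute known to load *Su(Ste)* piRNAs, was at 2.12, 2.01 and 3.65 FPKM in wild type, *mxcG43* and *mxcmbn1*, and *AGO3*, its partner, at 5.01, 2.91 and 6.10 FPKM. The median ratio of the list was 0.877 in *mxcG43* and 1.09 in *mxcmbn1*.

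In *mxcmbn1* members of the pathway lay on both sides of wild type. More than 2 times higher were 5 of 26 genes, and 2 were under 0.5 times wild type, against 15.6% and 23.4% of all entries. The Tudor-domain genes *tej*, *BoYb* and *krimp* were at 0.509, 0.531 and 1.93 FPKM in wild type and at 4.95, 4.99 and 11.2 FPKM in *mxcmbn1*. *piwi*, the nuclear Argonaute, was at 1.48 and 5.95 FPKM, and *del*, which acts with *rhi* at piRNA clusters, at 2.82 and 5.66 FPKM. *vas* was at 0.125 times and *qin* at 0.361 times the wild-type level. The *squ* and *SoYb* values belong to entries shared with a neighbouring gene. Most of the pathway thus stayed within 2 times of wild type in *mxcmbn1*.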

How the data were processed

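Members and gene lists were chosen with earlier results of these data known. Per the labels and methods, the authors used FastQC 0.11.5 for read quality, TopHat 2.0.6 for alignment (BDGP5) and Cufflinks for quantification, both of the latter with default parameters. They deposited 15185 entries in FPKM, without counts. The filter and the annotation are not given in the sources used here. Loci start from 0 and are given from 1. BDGP6 served only for names, strands, chromosomes and exon lengths.

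Copies were compared as ratios of deposited FPKM, with no pseudocount unless stated, and summed by family. Read numbers are FPKM times exon length less 200 bases (the default mean fragment length) divided by the value of 1 read. That value put 21 of 23, 30 of 35 and 120 of 130 low values of single-exon entries (wild type, *mxcG43*, *mxcmbn1*) within 0.1 of a whole read. The floor was 3 reads. A ratio "as listed" uses FPKM with no floor. Shares "of all entries" are taken over the entries above 0 in both libraries of a comparison. The way of finding the value of 1 read was tried on simulated levels. These were made with the same length of 200 bases, so that length and the division of reads were not tested. Named genes are all members, described singly for the highest of each family and the extremes of each ratio, and the fixed lists; further copies were named after their values were seen. Of the lists, *PCKR* was not found, and *CCY*, *PRY* and *WDY*, split over several entries, were not used. Software was scipy 1.17.1, pandas 2.3.3, numpy 2.4.6 and matplotlib 3.10.9 under Python 3.11.15.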

Additional observations from a re-analysis of the deposited data

How the results depend on the processing

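No paired analysis was possible because each genotype has 1 library, and no replicate could be left out. Of the recomputed values 35 kept within 1.5 times and 23 moved, none with a change of direction. Rescaling by the median ratio moved none, and neither did a minimum of 1 FPKM, which left out no *Ste* copy. No copy was joined, overlapping or at 0, so leaving out joined or overlapping entries and counting copies at 0 could change nothing. Part of the 35 values that kept was therefore fixed in advance. With a pseudocount of 1 on every copy, the *Su(Ste)* ratios were 1.84 (*mxcG43* to wild type), 4.26 (*mxcmbn1* to wild type) and 2.32 (*mxcmbn1* to *mxcG43*), the *Ste* ratios 2.40, 0.922 and 0.385, and the copies more than 10 times above wild type 0 and 1 for *Su(Ste)* in *mxcG43* and *mxcmbn1* and 0 for *Ste* in *mxcG43*. As the median over copies with a pseudocount of 0.1, the *Su(Ste)* ratios to wild type were 4.07 and 10.3, and the *Ste* ratios 9.46, 0.510 and 0.0575. With every copy under 3 reads set to 3 reads, an alternative chosen after seeing the data, the *Su(Ste)* ratios to wild type were 2.94 and 10.04, the *Ste* ratios 2.44, 0.738 and 0.302, and the copies over 10 times 3 and 7 for *Su(Ste)* and 0 for *Ste*. Leaving out the highest copy took *Su(Ste)* in *mxcmbn1* to *mxcG43* to 1.90. The few reads of most copies in wild type limit the size of their ratios to it.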
